A study of Arabidopsis thaliana with 6 samples.

Results

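The genes described here are 40 phenylpropanoid and flavonoid pathway genes of Arabidopsis thaliana, chosen by locus identifier out of 31109 genes with counts. They comprise 8 entry enzymes, 8 enzymes of the lignin branch, 5 early and 4 late flavonoid genes, 7 glycosyltransferases and 8 transcriptional regulators. All libraries were made from polyadenylated RNA of whole seedlings of the Col-0 ecotype, sampled at an age of 9 days. The groups were cpsf30-1, nerd-1 and WT, with 2 libraries each. The mutant lines differ from WT by the allele each is named for, and the labels do not describe the lesions or say how many plants went into a library. CPSF30 is a zinc-finger protein of the machinery for 3′ cleavage and polyadenylation of pre-mRNA, and NERD is a protein of small-RNA-directed silencing and DNA methylation.

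Phenylalanine ammonia-lyase (PAL) opens the phenylpropanoid pathway by removing ammonia from phenylalanine, and cinnamate 4-hydroxylase (C4H) and 4-coumarate:CoA ligase (4CL) turn the product into coumaroyl-CoA. From there the lignin branch makes the monolignols of the cell wall, while chalcone synthase (CHS) and chalcone isomerase (CHI) open the flavonoid branch, which leads to flavonols, anthocyanins and the tannins of the seed coat. In seedlings the flavonols and anthocyanins act mainly as screens against light and as antioxidants, and MYB, bHLH and WD40 proteins control the genes.

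Each value is a number of reads counted in 500 bases beginning just after a transcript's annotated 3′ end, and it is no measure of the gene's expression. Every window has the same length, so levels need no scaling by length, but they also depend on which genes lie in the window. Totals were 10207122 and 11291784 counts in cpsf30-1, 9774817 and 9764394 in nerd-1, and 8703050 and 13740648 in WT, with 1 transcript per gene. A count of 0 in a library allows up to 0.226 to 0.339 CPM (counts on a common library size), from 3 counts, and such floors and the intervals below cover counting error only. The counts do not separate strands: a plus-strand and a minus-strand window that share 453 bases at 4CL1 held counts in a ratio of 0.911 to 0.945 in every library. Reads of a neighbouring gene on either strand are therefore part of a window's count. In bulk seedlings, fewer cells of a type and less RNA per cell cannot be told apart. The labels do not say that the libraries of a group came from separate plants, so the p-values rest on a spread between libraries that may be technical. The window past CPSF30 itself (AT1G30460, the transcript with the farthest end) held 4 and 16 counts in cpsf30-1, 3 and 4 in nerd-1, and 4 and 2 in WT, and was not lower in cpsf30-1. That past its shorter transcript (AT1G30460.2), chosen after its values were seen, held 1 and 0 counts in cpsf30-1, 66 and 58 in nerd-1, and 43 and 49 in WT. The window past NERD held at most 3 counts in any library and checks nothing about nerd-1.

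Reads past the ends of 5 genes had the largest fold changes in cpsf30-1 against WT among the tested pathway genes, from few or no reads in WT. The sequences around these ends are shown because they mark the boundaries past which the reads were counted. Each run is 30 bases long and reads 5′ to 3′ on the strand of the gene (RefSeq, TAIR10.1). Capitals are the last 15 bases of the annotated transcript, and lower case is the first 15 bases past it. The runs lie at chr5:4490250-4490279 (plus strand, CHS), chr3:20430044-20430073 (minus, CHI), chr3:19026858-19026887 (plus, F3H), chr3:19744003-19744032 (minus, PAL2) and chr1:1645483-1645512 (minus, UGT75B1).
CHS: CATCAAATCTTTGTTacatccacaaggtct
CHI: TATGTCAAAGATGATtcaaccgttgaggtt
F3H: GCATTAATACTTCAActcctctctattcag
PAL2: TTTGTGTTTGGCTTCaaatgtatgtttctg
UGT75B1: TTTTTGAGACTCTCCaagcaagcgtgttcg

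The hexamer AATAAA, the canonical polyadenylation signal, was searched on the strand of the gene in each window. It occurred in 19 of 40 member windows (47.5%), against 45.0% of all 30618 windows with a position and 52.9% of the isolated windows, which hold no other annotated gene on either strand. Among the 5 genes above, CHI and UGT75B1 held it, and the windows past CHS, F3H and PAL2 did not. The CHI hexamer began 119 bases past the end and lies within chr3:20429923-20429952. The first UGT75B1 hexamer began 473 bases past the end and lies within chr1:1645008-1645037. A match of these letters is no evidence of use, and its absence says nothing about other signals. Capitals mark the hexamer in these 2 runs.
CHI, first hexamer: aaattatggtccAATAAAttggaatactcg
UGT75B1, first hexamer: atgtacacaagcAATAAActcaataaaaca

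**Figure D1:**
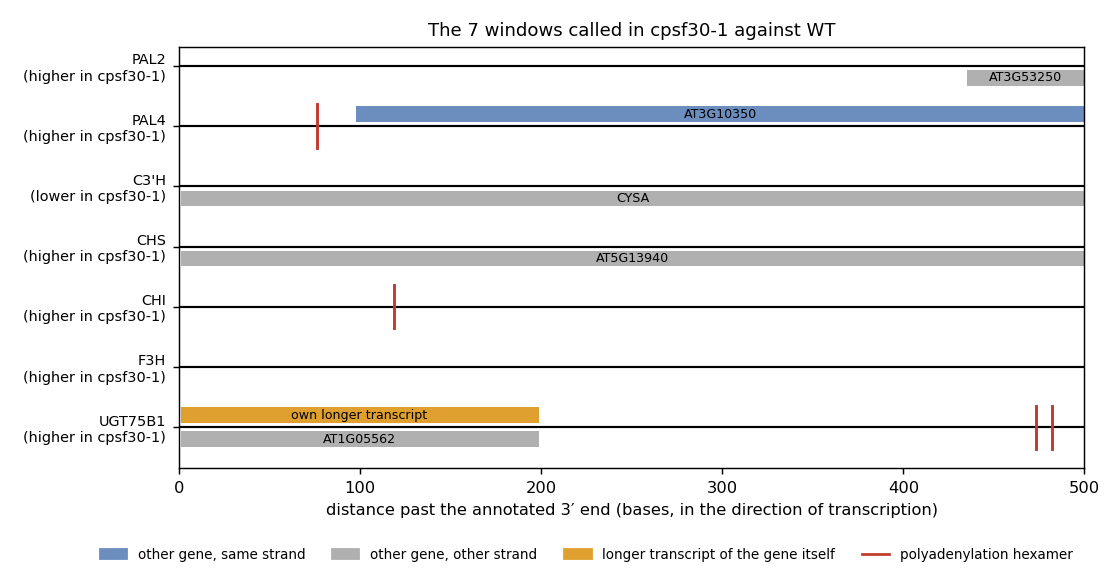
The windows past the annotated 3′ ends of the 7 pathway genes called in cpsf30-1 against WT, with distance in bases on the horizontal axis. Bars are annotated genes (blue on the same strand, grey on the other strand, orange a longer transcript of the gene itself) and red ticks are AATAAA hexamers. The windows past CHI and F3H hold no annotated gene, and those past CHS and C3'H lie wholly on a gene of the other strand.

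Against WT, cpsf30-1 had more reads past 6 of the 24 pathway genes that could be tested (25.0%) and fewer past 1, at an adjusted p under 0.05. Over all 14151 windows tested, 7.41% were called higher and 2.85% lower. The 6 higher windows followed PAL2, PAL4, CHS, CHI, F3H and UGT75B1, and the lower one followed C3'H. The filter on low counts bears on this share, because 8 of the 24 members, among them 5 of the 6 higher ones (PAL2, CHS, CHI, F3H and UGT75B1), reached it only with the cpsf30-1 libraries, against 9.10% of all windows tested. Entry in this way favours members that are high in cpsf30-1, so the 25.0% is not support for a change of the pathway. Without a filter all 40 members entered the fit, and 8 were higher (OMT1 and UGT78D2 in addition) and 1 lower, against 6.91% and 3.96% of all 25812 windows. Among isolated windows 15.6% were called higher and 1.76% lower over the whole series. Of the 19 isolated members 6 were tested, 4 of these only through cpsf30-1, and CHI and F3H were called higher. Among the 5 neighbouring windows on each side of a called member, the lowest count was 0 or 1 in every library around PAL2, C3'H, CHS, CHI, F3H and UGT75B1, and 0 to 16 around PAL4. A median isolated window had a mean of 0.5 counts per library, so a low minimum is common and is no measure of the reads around these genes. The other 16 members held too few reads for the filter, and the 24 are not a sample of the pathway.

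**Figure D2:**
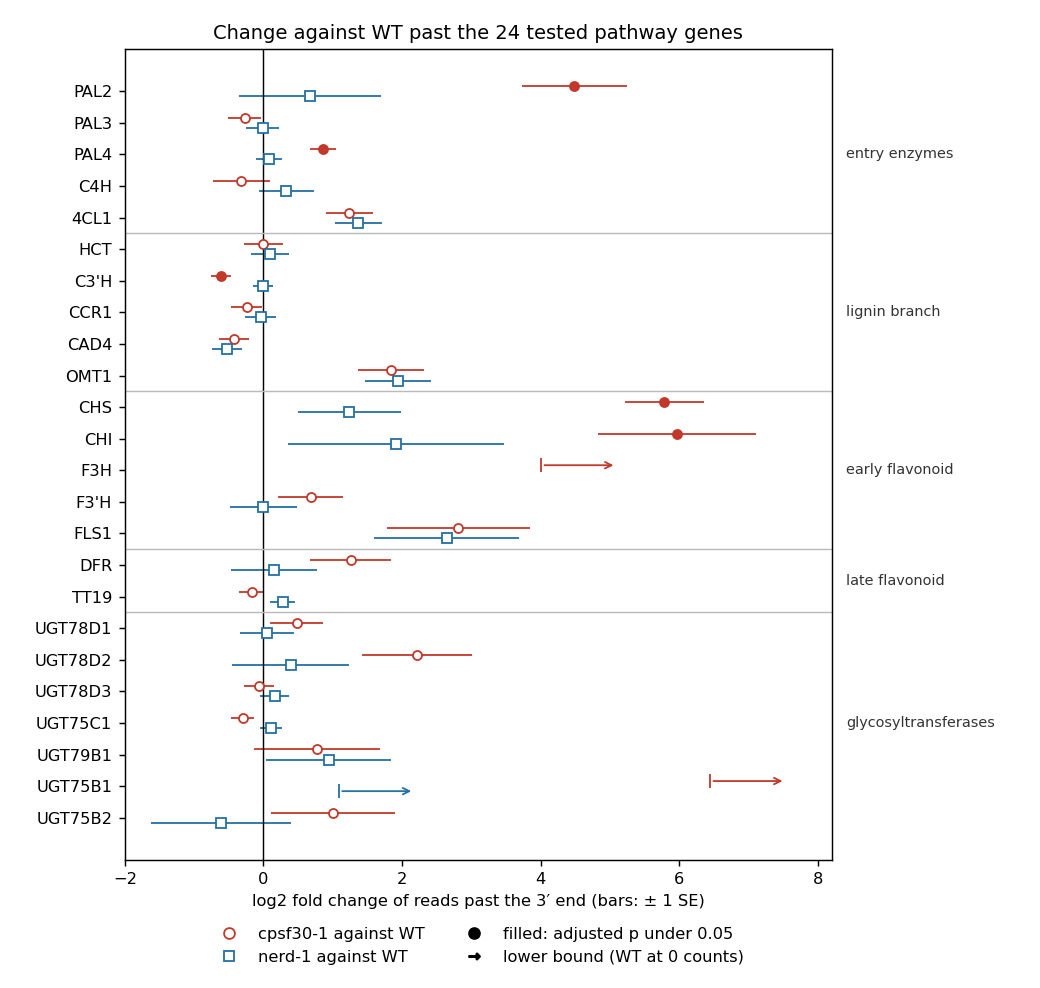
The log2 fold change of reads past the 3′ end against WT for the 24 tested pathway genes, with 1 SE on each side; circles are cpsf30-1, squares nerd-1, and filled symbols passed an adjusted p of 0.05. Arrows start at the lower bound where WT had 0 counts; F3H in nerd-1, at 4 counts against 0, has no symbol. The largest cpsf30-1 values are those of UGT75B1, CHI, CHS, PAL2 and F3H, and no nerd-1 symbol is filled.

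Of the 8 entry enzymes, 5 could be tested, and the windows past PAL2 and PAL4 rose in cpsf30-1. PAL2 (AT3G53260), with PAL1 a main isoform of lignifying and flavonoid-making tissue, had 26 and 22 counts past its end in cpsf30-1, 1 and 2 in nerd-1, and 1 and 1 in WT. Both cpsf30-1 libraries stood far above the other 4, none of which exceeded 2 counts. The ratio of cpsf30-1 to WT was 25.2 with a 95% counting interval of 6.60 to 214 (SE of the log2 fold change 0.757, adjusted p = 0.014). The window lies at chr3:19743518-19744017 and has 66 of its bases on AT3G53250, a gene of the other strand. The call was lost without either cpsf30-1 library (adjusted p = 0.0711 and 0.0645) and without WT replicate 2 (0.0547).

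PAL4 (AT3G10340) had 1479 and 1846 counts in cpsf30-1, 911 and 901 in nerd-1, and 877 and 984 in WT. The cpsf30-1 libraries lay above all others, 1.82-fold over WT (log2 fold change 0.86, SE 0.188, adjusted p = 0.0321). Of its 500 bases, 403 lie on AT3G10350, the next gene of the same strand, whose own transcripts are counted there. The call held without WT replicate 1 and was lost without any other library (adjusted p of 0.0701 to 0.154). In the fit of the 4 libraries compared it was 0.0974.

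PAL3 (AT5G04230), a PAL of low activity, had 94 and 78 counts in cpsf30-1, 94 and 99 in nerd-1, and 81 and 139 in WT. C4H (AT2G30490), the membrane-bound hydroxylase of the second step, had 24 and 19 counts in cpsf30-1, 35 and 29 in nerd-1, and 24 and 32 in WT. Neither gene passed the test (adjusted p = 0.519 and 0.665). The PAL3 window has 171 bases on a pseudogene of the other strand, and the C4H window 292 on AT2G30480 of the same strand. 4CL1 (AT1G51680), the main ligase of lignin synthesis, had 48 and 45 counts in cpsf30-1, 49 and 47 in nerd-1, and 17 and 24 in WT. All mutant libraries lay above both WT libraries, but the log2 fold change of 1.24 ± 0.344 (SE) in cpsf30-1 had an adjusted p of 0.0641 and that of 1.37 ± 0.344 in nerd-1 one of 0.301. All 500 bases of the 4CL1 window lie on AT1G51670, a gene of the other strand, so reads of that gene are part of its count. PAL1 (AT2G37040), 4CL2 (AT3G21240) and 4CL3 (AT1G65060) were not tested, with 2 to 4 counts over all 6 libraries.

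In the lignin branch 5 of 8 genes could be tested, with no window higher and the window past C3'H lower. C3'H (CYP98A3, AT2G40890) hydroxylates coumaroyl esters on the way to monolignols. Its window held 3054 and 3285 counts in cpsf30-1, 4398 and 4643 in nerd-1, and 4179 and 5899 in WT. In CPM the cpsf30-1 libraries lay below the other 4, and the fold was 1.53 lower than WT (log2 fold change -0.61, SE 0.148, adjusted p = 0.0436). All 500 bases lie on CYSA, a cystatin gene of the other strand, so reads of CYSA are part of its count. The window past CYSA in turn lies wholly on C3'H exons, and held 2281 and 2054 counts in cpsf30-1, 1567 and 1465 in nerd-1, and 1215 and 2614 in WT (log2 fold change against WT 0.26, SE 0.195, adjusted p = 0.432). The window with the fall thus lies on CYSA bases, and the window on the exons of C3'H itself gave no call. Reads that ran on past CYSA would also fall in this exon window, and their part was not tested. The call past C3'H was lost in each of the 6 fits that left out a library (adjusted p of 0.0712 to 0.118). It was also lost in the fit of the 4 libraries compared (0.113).

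HCT (AT5G48930), the acyltransferase that makes the esters used by C3'H, had 202 and 331 counts in cpsf30-1, 269 and 259 in nerd-1, and 242 and 303 in WT, and its groups overlapped. CCR1 (AT1G15950), the reductase that commits CoA esters to lignin, had 230 and 185 counts in cpsf30-1, 237 and 214 in nerd-1, and 209 and 306 in WT. CAD4 (AT3G19450), a cinnamyl alcohol dehydrogenase, had 179 and 193 counts in cpsf30-1, 185 and 142 in nerd-1, and 192 and 336 in WT. None of these passed the test in cpsf30-1 (adjusted p = 0.995 for HCT, 0.535 for CCR1 and 0.262 for CAD4). Their windows lie wholly or mostly on other genes. HCT has 460 bases on TED7 and CCR1 has 500 on NRAMP6, both of the other strand. CAD4 has 471 on AT3G19460 of the same strand. OMT1 (AT5G54160), the caffeate and flavonol O-methyltransferase, had 56 and 97 counts in cpsf30-1, 101 and 53 in nerd-1, and 12 and 34 in WT. Each mutant library lay above both WT libraries, with log2 fold changes of 1.84 ± 0.477 (SE, adjusted p = 0.053) in cpsf30-1 and 1.94 ± 0.477 (adjusted p = 0.298) in nerd-1, neither past the threshold. Other fits called it: DESeq2 gave adjusted p of 0.0108 in cpsf30-1 and 0.0407 in nerd-1, edgeR without a filter 5.07e-05 and 3.57e-05, and the block with exchanged cpsf30-1 numbers 0.0423 in cpsf30-1. The OMT1 window has 331 bases on AT5G54165 of the same strand. CCoAOMT1 (AT4G34050), CAD5 (AT4G34230) and F5H (AT4G36220) were not tested, with 12, 46 and 2 counts in all.

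All 5 early flavonoid enzymes were tested, and CHS, CHI and F3H, each testable only through the cpsf30-1 libraries, rose in cpsf30-1. CHS (AT5G13930) condenses coumaroyl-CoA with malonyl-CoA in the first committed step. Its window (chr5:4490265-4490764, plus strand) held 109 and 119 counts in cpsf30-1, 4 and 5 in nerd-1, and 3 and 1 in WT. Means were 10.8 ± 0.349 CPM in cpsf30-1, 0.455 ± 0.0916 in nerd-1 and 0.207 ± 0.187 in WT (SD, n = 2 each). The rise over WT was 54.8-fold (log2 fold change 5.78, SE 0.569, adjusted p = 0.00338), and it passed the threshold of 0.05 with each library left out; the log2 value was 6.96 without WT replicate 1 and 4.91 without WT replicate 2. The whole window lies on AT5G13940, a gene of the other strand, to which reads of the window may belong.

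The body of CHS could be read as well, because the window past AT5G13940 lies with all 500 bases on CHS exons. It held 8662 and 9448 counts in cpsf30-1, 3775 and 3518 in nerd-1, and 2666 and 4746 in WT. Means were 857 ± 27.1 CPM in cpsf30-1, 367 ± 1.82 in nerd-1 and 329 ± 39.1 in WT (SD, n = 2 each), and the groups of cpsf30-1 and WT did not overlap. Reads on the exons were 2.53-fold higher in cpsf30-1 than in WT (log2 fold change 1.34, SE 0.166, adjusted p = 0.0063) and 1.12-fold higher in nerd-1 (log2 fold change 0.17, SE 0.163, adjusted p = 0.736). This adjustment ran over the 19294 windows tested among all deposited transcripts. Reads that ran on past AT5G13940 would also fall in this window, and their part was not tested.

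The fold past CHS was larger than that on its exons. Reads past the end came to 1.26% and 1.26% of the exon count in the cpsf30-1 libraries, to 0.106% and 0.142% in nerd-1, and to 0.113% and 0.0211% in WT. The lowest cpsf30-1 share was thus above every share of the other genotypes. Other members with enough past-end reads to compare did not follow CHS. The ratio was lower in both cpsf30-1 libraries than in both WT libraries for UGT78D1, C3'H and UGT75C1. For UGT78D1 it was 20.3% and 18.0% in cpsf30-1 against 23.4% and 33.9% in WT. For 4CL1 it was above WT but below nerd-1, and for HCT and TT19 cpsf30-1 and WT overlapped. The past-end windows of these 6 genes lie wholly or mostly on another gene. For CCoAOMT1 the past-end counts were 0 and 0 in cpsf30-1, 4 and 5 in nerd-1, and 1 and 2 in WT, too few to compare. Its exon and past-end windows also overlap. With 2 libraries a group, a two-sided exact permutation test of the CHS ratio cannot go below p = 0.333, and the difference between the 2 CHS fold changes was not tested.

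**Figure D3:**
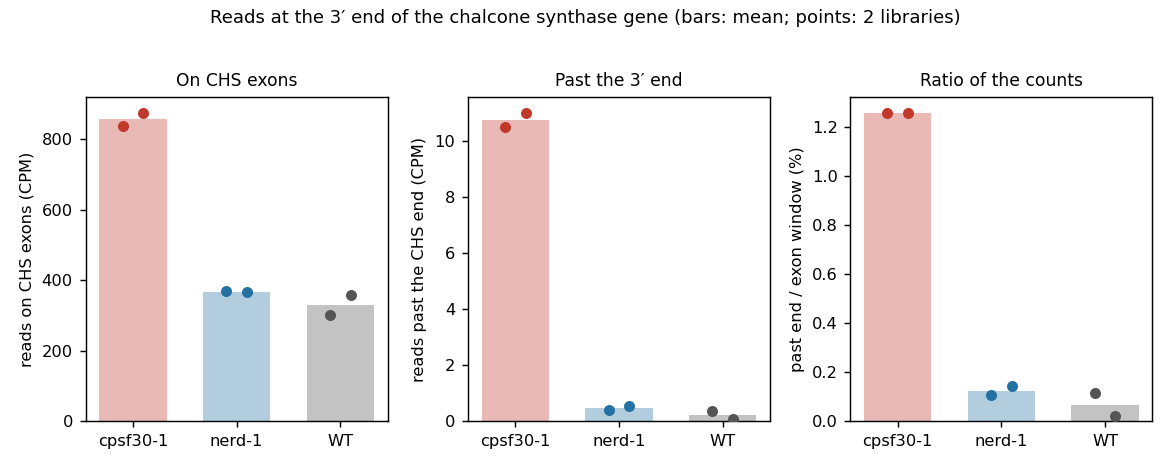
Reads at the CHS 3′ end by genotype: CPM in 500 bases of CHS exons (left), CPM in the 500 bases past the end (middle) and the past-end count as a percent of the exon count (right). Bars are means and points the 2 libraries of each genotype; the cpsf30-1 ratio is 1.26% in both libraries, and the 4 other libraries lie at 0.142% or below.

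F3H (AT3G51240), the flavanone 3-hydroxylase, had 51 and 44 counts in cpsf30-1, 1 and 3 in nerd-1, and 0 and 0 in WT. Its window (chr3:19026873-19027372, plus strand) is isolated, and the next gene starts 1233 bases past the end. The level was 4.51 ± 0.603 CPM in cpsf30-1 (SD, n = 2), at least 16.0-fold higher than WT with WT set to 3 counts per library (adjusted p = 0.0081). The call against WT held with each library left out.

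CHI (AT3G55120), which closes the chalcone ring, had 40 and 34 counts in cpsf30-1, 4 and 0 in nerd-1, and 0 and 1 in WT. Its window (chr3:20429559-20430058, minus strand) is isolated as well, with the next gene, ABCG18, 2674 bases away. The ratio of cpsf30-1 to WT was 77.6 with a 95% counting interval of 13.5 to 3100 (SE of the log2 fold change 1.14, adjusted p = 0.021). Without either cpsf30-1 library the adjusted p was 0.0826 and 0.0781. The log2 fold change of 5.96 was 5.34 without WT replicate 1, and without WT replicate 2 no WT count remained.

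F3'H (AT5G07990), which adds the hydroxyl group of the quercetin type, had 21 and 22 counts in cpsf30-1, 13 and 12 in nerd-1, and 11 and 17 in WT (log2 fold change against WT 0.68, SE 0.470, adjusted p = 0.396). The F3'H window has 272 bases on E13L3, the next gene of the same strand. FLS1 (AT5G08640), the main flavonol synthase, had 16 and 14 counts in cpsf30-1, 12 and 13 in nerd-1, and 4 and 0 in WT. For FLS1 every mutant library lay above both WT libraries, and the adjusted p was 0.129 in cpsf30-1 and 0.474 in nerd-1, neither past the threshold. A single WT library decided the cpsf30-1 value: without WT replicate 1, which held all 4 WT counts, the adjusted p was 0.0314, and without WT replicate 2 it was 0.248 with a log2 fold change of 1.59, against 2.81 with all libraries. Among the late flavonoid genes, DFR (AT5G42800), the reductase at the entry to anthocyanins, had 16 and 14 counts in cpsf30-1, 8 and 5 in nerd-1, and 5 and 8 in WT (adjusted p against WT 0.212). The TT19 (AT5G17220) window, past a glutathione S-transferase gene needed for anthocyanin and tannin accumulation, held 2734 and 3483 counts in cpsf30-1, 3969 and 3987 in nerd-1, and 3244 and 3894 in WT. It lies wholly on PSY, the phytoene synthase gene of the other strand, and did not pass the test (adjusted p = 0.598). LDOX (AT4G22880), the anthocyanidin synthase, and BAN (AT1G61720), the anthocyanidin reductase of tannin synthesis, were not tested, with 5 and 4 counts in all.

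**Figure D4:**
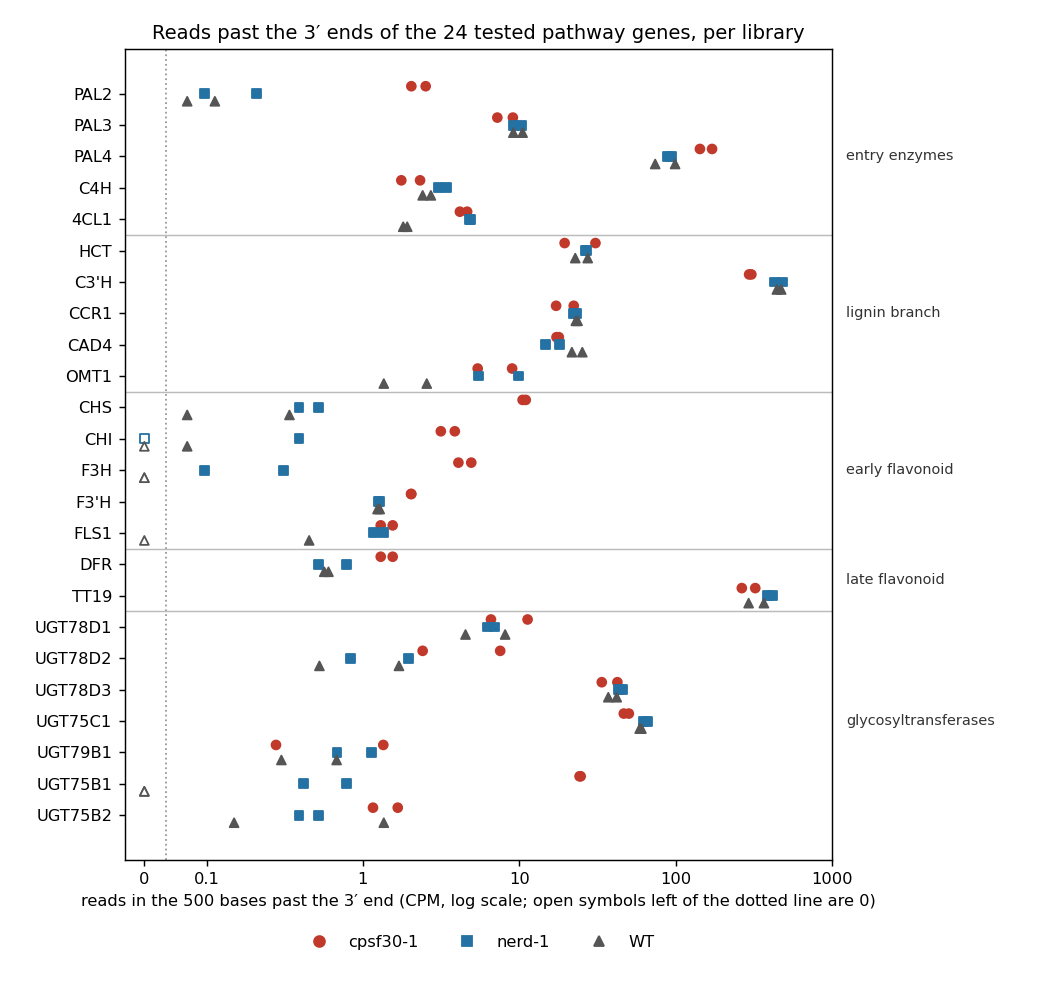
Reads past the 3′ end in CPM on a log scale for the 24 tested pathway genes, a symbol for each of the 6 libraries (circles cpsf30-1, squares nerd-1, triangles WT; open symbols at the left edge are 0 counts). In cpsf30-1 the windows past UGT75B1, CHS, F3H, CHI and PAL2 stand clear of all other libraries, and the highest levels, past C3'H and TT19, come from windows that lie on another gene.

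All 7 glycosyltransferases were tested, and the window past UGT75B1 rose in cpsf30-1, with the smallest adjusted p of any member. UGT75B1 (AT1G05560) encodes a UDP-glucosyltransferase known to conjugate p-aminobenzoate. Its window (chr1:1644998-1645497, minus strand) held 255 and 262 counts in cpsf30-1, 8 and 4 in nerd-1, and 0 and 0 in WT. The level of 24.5 ± 0.26 CPM in cpsf30-1 (SD, n = 2) was at least 86.7-fold higher than WT, with WT set to 3 counts per library (adjusted p = 0.00147). The call passed with each library left out. In the reference, 198 of the bases fall in a longer UGT75B1 transcript and in the noncoding RNA AT1G05562 of the other strand, and the next gene of the same strand is 1580 bases away.

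The upstream end of UGT75B1 could be read through the window past AT1G05570, which has 361 bases on UGT75B1 exons. It held 25 and 9 counts in cpsf30-1, 1 and 6 in nerd-1, and 4 and 8 in WT, too few for the filter. All 361 bases also lie on the noncoding RNA AT1G05562 of the other strand, so reads of either gene are counted there. In cpsf30-1 the reads past the 3′ end outnumbered those of this stretch in both libraries, while in WT the stretch had reads and the past-end window had none.

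The other 6 glycosyltransferases did not pass the test. UGT78D2 (AT5G17050), the flavonoid 3-O-glucosyltransferase, had 78 and 26 counts in cpsf30-1, 20 and 8 in nerd-1, and 15 and 7 in WT. Both cpsf30-1 libraries were above the rest, but they differed widely from each other (log2 fold change against WT 2.21, SE 0.796, adjusted p = 0.123). The log2 value was 1.16 without cpsf30-1 replicate 1 and 3.21 without WT replicate 1, the ends of its range with a library left out, with no call, and edgeR without a filter called it (adjusted p = 0.00224). UGT78D1 (AT1G30530), the flavonol 3-O-rhamnosyltransferase, had 117 and 71 counts in cpsf30-1, 64 and 67 in nerd-1, and 40 and 108 in WT. UGT78D3 (AT5G17030), the flavonol arabinosyltransferase, had 438 and 363 counts in cpsf30-1, 440 and 440 in nerd-1, and 328 and 559 in WT. The anthocyanin 5-O-glucosyltransferase UGT75C1 (AT4G14090) had 519 and 502 counts in cpsf30-1, 641 and 634 in nerd-1, and 521 and 803 in WT. For these 3 genes the windows lie wholly or mostly on genes of the other strand, and the log2 fold changes in cpsf30-1 were 0.48, -0.06 and -0.30. UGT79B1 (AT5G54060), an anthocyanin xylosyltransferase, and UGT75B2 (AT1G05530), the neighbour and relative of UGT75B1, had at most 18 counts in a library (adjusted p = 0.634 and 0.519).

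None of the 8 regulators could be tested. TT8 (AT4G09820, a bHLH protein), TTG1 (AT5G24520, the WD40 protein of the same complexes), the anthocyanin regulators PAP1 (AT1G56650) and PAP2 (AT1G66390), the flavonol regulators MYB11 (AT3G62610), MYB12 (AT2G47460) and MYB111 (AT5G49330) and the repressor MYB4 (AT4G38620) had 2 to 30 counts over all 6 libraries. Over all 16 untested members no library held more than 12 counts in a window, and 13 of the 16 windows are isolated. A median isolated window of the whole series had a mean of 0.5 counts per library, against 75.5 for windows whose neighbour lies on the other strand and 37.2 for those with a neighbour on the same strand. Member windows with enough reads went with position: all 12 with a neighbour on the other strand were tested, 6 of 9 with a neighbour on the same strand and 6 of 19 isolated.

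The nerd-1 comparison gave no call among the 24 tested members, in either direction. Over all windows tested, 0.00707% were called higher and 0.0353% lower, so calls were rare throughout. At an unadjusted p under 0.05 there were 6 members (4CL1, CAD4, OMT1, F3H, FLS1 and UGT75B1), against 9.82% of all windows tested. Of these DESeq2 called 1 (OMT1) and the edgeR fit without a filter 2 (OMT1 and UGT75B1). F3H and UGT75B1 had reached the filter only with the cpsf30-1 libraries, and F3H held 1 and 3 counts in nerd-1 against 0 and 0 in WT. The median log2 fold change of the 24 members was 0.22, against -0.01 over all windows. The smallest adjusted p, 0.187, belonged to UGT75B1, at 8 and 4 counts in nerd-1 against 0 and 0 in WT, at least 2.12-fold higher. CHS had a log2 fold change of 1.24 ± 0.744 (SE, adjusted p = 0.612) in nerd-1.

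Set against nerd-1, cpsf30-1 again had 6 higher members and 1 lower, the same genes as against WT, while 7.38% of all windows were called higher and 3.24% lower. The 2 comparisons share the cpsf30-1 libraries, so the second is no independent repeat. PAL2, CHS, CHI, F3H and UGT75B1 reached the filter only with these libraries, so the share called here is no support for a change of the pathway either. Without a filter 7 of the 40 members were higher and 1 lower, against 7.38% and 4.32% of all 25812 windows. Isolated windows in this comparison were called higher in 13.8% and lower in 2.43% of all cases, and CHI and F3H were the 2 of 6 isolated members called. UGT75B1 was 39.9-fold higher (log2 fold change 5.32, SE 0.364, adjusted p = 0.00221), CHS 23.2-fold (4.54, SE 0.507, adjusted p = 0.00429) and F3H 21.1-fold (4.40, SE 0.704, adjusted p = 0.0179). The F3H log2 value was 3.80 without nerd-1 replicate 1 and 5.37 without nerd-1 replicate 2, and the call was lost in both (adjusted p = 0.132 and 0.112). CHI was 16.6-fold higher (4.06, SE 0.942, adjusted p = 0.0389), and its log2 value moved to 8.22 without nerd-1 replicate 1 and to 3.13 without nerd-1 replicate 2. For PAL2 the ratio was 15.0, with a 95% counting interval of 4.85 to 75.5 (adjusted p = 0.0216). PAL4 was 1.72-fold higher (adjusted p = 0.0424) and C3'H 1.52-fold lower (adjusted p = 0.0446). UGT75B1 alone among these 7 kept its call without each library in turn, and CHS lost it without nerd-1 replicate 1 (0.0788) or replicate 2 (0.0664).

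Several members have more than 1 annotated end, and all 52 deposited transcripts of the 40 genes were read in a fit of all transcripts, of which 30 were tested. Windows of a gene share reads and are not replicates. Against WT, 7 were higher and 2 lower in cpsf30-1, against 7.87% and 3.36% of all transcript windows. Against nerd-1, 6 were higher and 2 lower (7.42% and 3.64% of all), and nerd-1 against WT gave none (0.0104% higher and 0.0415% lower of all; 8 member windows at an unadjusted p under 0.05, DESeq2 1 and no filter 2). The 2 F3H transcripts have identical counts and make up the seventh higher window. The second lower window followed PAL3 transcript AT5G04230.2, with 14 and 12 counts in cpsf30-1, 41 and 33 in nerd-1, and 45 and 59 in WT, and no overlap between cpsf30-1 and the rest. It fell by 1.98 on the log2 scale (SE 0.385, adjusted p = 0.0217). The window of the other PAL3 transcript, whose end lies 59 bases farther on in the reference, gave no call (log2 fold change -0.31, adjusted p = 0.431). These ends are those of a later annotation than the counts may have used, and the call of AT5G04230.2 held without WT replicate 2 and was lost without any other library (adjusted p of 0.0590 to 0.0957).

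Exons of 12 members were covered by at least 250 bases of some window, and for 10 of them such a window was tested. CHS and UGT78D1 were higher in cpsf30-1 than in WT and none was lower, against 7.87% and 3.36% of all transcript windows, and the log2 fold changes of the 15 tested windows ran from 0.07 to 1.34. For UGT78D1 the exon window held 576 and 395 counts in cpsf30-1, 245 and 245 in nerd-1, and 171 and 319 in WT. It was 2.06-fold higher in cpsf30-1 (log2 fold change 1.05, SE 0.267, adjusted p = 0.0489), a call lost in all 6 fits that left out a library (adjusted p of 0.0532 to 0.162) and in the fit of the 4 libraries compared (0.106). The exon windows of 4CL1, 4CL2, HCT, C3'H, CCoAOMT1, TT19, UGT78D3 and UGT75C1 gave no call in any of the 3 comparisons. These windows were chosen after other values had been seen.

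A further 55 genes around the pathway (supply of phenylalanine, other enzymes, decoration, transport, polymerisation, regulators and protein turnover) gave 31 tested windows, with a median log2 fold change of 0.01 in cpsf30-1 against WT. Of these, 2 were higher (6.45%) and 4 lower (12.9%), against 7.41% and 2.85% of all windows tested. The higher share was thus not above that of all windows. The lower share was above it, a difference that was not tested. SCPL10, a sinapoyltransferase of anthocyanin decoration, had 489 and 541 counts in cpsf30-1, 241 and 276 in nerd-1, and 221 and 303 in WT (log2 fold change 1.03, SE 0.221, adjusted p = 0.0304). Its neighbour SNG1, which makes sinapoylmalate, had 71 and 56 counts in cpsf30-1, 210 and 356 in nerd-1, and 154 and 464 in WT, and fell by 2.12 on the log2 scale (SE 0.433, adjusted p = 0.0264). These 2 isolated windows moved in opposite directions. Both genes belong to a cluster of similar genes, and how reads that match several copies were counted is not given in the sources used here.

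KFB-CHS, an F-box protein that marks chalcone synthase for degradation, had 73 and 49 counts in cpsf30-1, 8 and 8 in nerd-1, and 8 and 26 in WT (log2 fold change 1.97, SE 0.499, adjusted p = 0.0496). KFB50, an F-box protein that acts on PAL, had 446 and 466 counts in cpsf30-1, 669 and 708 in nerd-1, and 641 and 1042 in WT (log2 fold change -0.80, adjusted p = 0.0259), in a window wholly on AT3G59950 of the other strand. Thus the windows past these 2 turnover genes were called in opposite directions. The window past 3AT2, an anthocyanin acyltransferase, held 22 and 23 counts in cpsf30-1, 79 and 80 in nerd-1, and 78 and 100 in WT (log2 fold change -1.93, SE 0.287, adjusted p = 0.00962). That past ADT1, an arogenate dehydratase that makes phenylalanine, held 53 and 63 counts in cpsf30-1, 146 and 111 in nerd-1, and 107 and 179 in WT (log2 fold change -1.22, SE 0.232, adjusted p = 0.0206), and lies wholly on AT1G11800. Of the 6 calls, that of 3AT2 held with each library left out. Those of ADT1, SCPL10 and KFB50 held only without WT replicate 1 (adjusted p of 0.0548 to 0.124 without another library), that of KFB-CHS only without WT replicate 2 (log2 fold change 2.63; adjusted p of 0.0987 to 0.197 without another library), and that of SNG1 was lost without either cpsf30-1 library (0.0857 and 0.116). No member of this list was called in nerd-1 (2 at an unadjusted p under 0.05, and 1 in the fit without a filter).

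Against nerd-1, cpsf30-1 had 4 higher (12.9%) and 5 lower (16.1%) windows in this wider list, against 7.38% and 3.24% of all windows tested. The 6 genes above were called in the same direction in both comparisons, which share the cpsf30-1 libraries. HY5, a light-signalling regulator of flavonoid genes, was added on the higher side with 52 and 30 counts in cpsf30-1 and 1 and 0 in nerd-1 (adjusted p = 0.0323), but the log2 value of 5.98 was 8.37 and 5.16 without nerd-1 replicate 1 and 2, with no call, and WT had 2 and 26 and the comparison with WT gave an adjusted p of 0.228. REF4, a Mediator subunit that restrains the pathway, had 393 and 483 counts in cpsf30-1, 198 and 168 in nerd-1, and 284 and 280 in WT (log2 fold change against nerd-1 1.17, SE 0.275, adjusted p = 0.0396). The remaining call was 4CL5, lower, in a window wholly on MKK5 of the other strand. Each of the 9 calls was lost without at least 1 of the cpsf30-1 or nerd-1 libraries. The filter on low counts bears on the higher share of 12.9% as well. KFB-CHS and HY5 had few reads in every library outside cpsf30-1 except WT replicate 2, so they reached the filter with the help of the cpsf30-1 libraries. Entry in this way favours windows that are high in cpsf30-1, and the share is not support for a change of the wider list. The REF4 and HY5 windows lie mostly on the next gene of the same strand.

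Markers of shoot and root were read in the same way. The windows past 7 shoot genes summed to 15836 and 17460 CPM in cpsf30-1, 13029 and 14132 in nerd-1, and 12730 and 13046 in WT, and 3 of the 7 (PSAF, CA1 and LHCA1) were called higher in cpsf30-1. Those past 9 root genes summed to 126 and 141 CPM in cpsf30-1, 146 and 125 in nerd-1, and 144 and 114 in WT, with PHO1 called higher, 5 other tested genes not called, and COBL9, SHR and IRT1 at 4 to 5 counts over all libraries. Of the 13 tested markers, 4 were higher in cpsf30-1 than in WT (30.8%) and 0 lower. Over all windows tested 7.41% were called higher, over isolated windows 15.6%, and among the tested pathway members 25.0%. PHO1 held 59 and 60 counts in cpsf30-1, 5 and 1 in nerd-1, and 0 and 3 in WT. LHCA1 held 105 and 76 counts in cpsf30-1, 4 and 5 in nerd-1, and 3 and 20 in WT. Both thus reached the filter on low counts with the help of the cpsf30-1 libraries. The 30.8% is therefore no support for a change of shoot or root. The windows past PHO1 and PSAF lie mostly on another gene (AT3G23420 of the same strand and LBD4 of the other). Most of the shoot sum was RBCS2B, at 11100 and 11700 CPM in cpsf30-1, 8810 and 9220 in nerd-1, and 7300 and 8560 in WT, which was not called (adjusted p = 0.248). CAB2, the next in level, had a log2 fold change of 0.05, and RBCS1A varied between libraries of a group, with 437 and 7.98 CPM in cpsf30-1, 0.293 and 0.104 in nerd-1, and 310 and 0.376 in WT. The higher shoot sum in cpsf30-1 therefore rests mainly on 1 uncalled gene. Its part in the rises past CHS, CHI, F3H, UGT75B1 and PAL2 was not tested.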

How the data were processed

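The deposited files hold raw counts of reads per transcript in the 500 bases past its 3′ end, per the file names, 1 file for each of 6 libraries (2 per genotype). The TAIR10 build was used, per the submitters' processing notes, with TopHat2 2.0.7, Bowtie2 2.3.4, Cuffdiff and Cufflinks 2.2.1. Which program counted the reads, whether by strand, and how overlapping genes were treated is not given in the sources used here. Per the labels, the libraries were stranded and made from polyadenylated RNA. Members and gene lists were chosen with earlier results of these data known.

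For each of 31109 genes the transcript with the 3′ end farthest downstream was kept (ties to the lowest isoform number). Positions come from the TAIR10.1 RefSeq models, which gave 38527 of 39087 transcripts a place, so window borders are approximate. Counts were tested in edgeR 4.0.16 (limma 3.58.1, R 4.3.3) with TMM scaling (factors 0.9576 to 1.051), the edgeR expression filter by genotype (14151 windows tested, 16958 not) and a two-sided quasi-likelihood F-test with 1 mean per genotype in all 6 libraries (3 residual and 4.28 prior degrees of freedom, common biological coefficient of variation 0.265). P-values were adjusted by Benjamini-Hochberg over all windows tested, and the threshold was 0.05. The SE is the size of the log2 fold change divided by the square root of F. CPM use the TMM-scaled library sizes. The scripts were tested on simulated data. Where a group had 0 counts, folds are bounds with 3 counts per library; with 1 to 3 counts they are ratios with an exact binomial interval.

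Counts in all 6 libraries are given for members called in any comparison or with a mean of at least 1 CPM, and for up to 8 called genes of the wider list per comparison with the smallest adjusted p; counts of PAL2, FLS1, DFR and the untested genes serve to account for the members. Exon windows hold at least 250 bases of a listed gene's exons and were chosen after seeing the data. Alternatives were DESeq2 1.42.0, its size factors in edgeR, no filter, a fit without the third genotype, a block for the replicate number, leaving out each library in turn, the transcript with the highest total, a threshold of 0.01 and, added later, a block with the cpsf30-1 numbers exchanged.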

Additional observations from a re-analysis of the deposited data

How the results depend on the processing

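No called window named here changed direction under any alternative; of the uncalled members at an unadjusted p under 0.05, 4CL1 in nerd-1 reversed to -0.16 when the transcript with the highest total, whose window lies on the gene's own exons, was used. SNG1 against WT was -1.14 (adjusted p = 0.0869) in the same alternative. No scaling moved the median of all windows by over 0.1 on the log2 scale. The fits with a library left out, with 4 libraries or with a block kept the filter set on all 6 libraries, so entry to the test did not vary there. UGT75B1, CHS and F3H had entered only with the cpsf30-1 libraries. The calls of UGT75B1, CHS and F3H against WT held in all 14 alternatives, with adjusted p up to 0.0145, 0.0276 and 0.0454, and that of the CHS exon window in all 13 (up to 0.0309). Against nerd-1, UGT75B1 held in all 14 (up to 0.046). The number of members higher in cpsf30-1 than in WT, 6, was 3 to 7 with a library left out and 3 at a threshold of 0.01. The 1 lower member became 0 in all 6 fits with a library left out, with 4 libraries, in the block and at 0.01. Against nerd-1 the 6 higher became 1 to 6 with a library left out, 2 in the block and 2 at 0.01, and the 1 lower became 0 to 1, 0 and 0. Members called in nerd-1 numbered 0 in edgeR with the filter, 1 in DESeq2 and 2 in edgeR without a filter. The 6 wider-list calls in cpsf30-1 against WT became 1 to 5 with a library left out, 2 with 4 libraries, 1 in the block and 1 at 0.01; the 9 against nerd-1 became 0 to 9, 1 in the block and 0 at 0.01; the 0 in nerd-1 became 1 without a filter. Transcript windows called numbered 9 against WT (4 to 8 with a library left out, 5 in the block, 4 at 0.01), 8 against nerd-1 (0 to 10, 2 in the block, 2 at 0.01) and 0 in nerd-1 (1 in DESeq2, 2 without a filter). The cause of these changes was not tested, except that a threshold of 0.01 is stricter by construction and a fit with a library left out has fewer samples.

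Libraries share only replicate numbers: deviations of same-numbered libraries correlated at -0.00103 (cpsf30-1 and nerd-1), -0.311 (cpsf30-1 and WT) and -0.00493 (nerd-1 and WT). With the replicate block, CHI against WT had an adjusted p of 0.0598, PAL4 0.0965 and C3'H 0.122. The block with exchanged cpsf30-1 numbers, chosen after seeing the data, gave 7 members higher and 1 lower against WT. Depth limits 16 members, with at most 12 counts in a library, and 2 libraries per genotype limit every test.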
